A study of Mus musculus with 6 samples.

Results

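The genes of cholesterol and fatty acid synthesis were described in the lungs of R/R mice, which carry the RBM47 K329R;K332R knock-in on both alleles, and of WT littermates. The set held 32 genes, listed by symbol from the known pathway with earlier results of these data known, of 56262 genes in the count table. All 32 had enough counts to be tested, among 17120 tested genes. They comprised 18 enzymes of sterol synthesis, 10 enzymes of fatty acid synthesis, and 4 regulators or carriers (Srebf1, Srebf2, Insig1 and Stard4).

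Cells make cholesterol and fatty acids from the same precursor, acetyl-CoA, and the genes of both routes are driven by the SREBP transcription factors. Srebf2 encodes SREBP2, which acts mainly on the sterol genes, and Srebf1 encodes SREBP1, which acts mainly on the fatty acid genes. When sterols are scarce, SREBPs leave the endoplasmic reticulum, are cut, and enter the nucleus, whereas INSIG proteins hold them back when sterols are plentiful. In the lung, alveolar type 2 cells use this machinery to make the lipids of surfactant, and alveolar macrophages take up and clear surfactant lipid.

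RNA-seq was performed on whole lung tissue of 3 R/R and 3 WT mice, all 8 weeks of age, untreated and on the C57BL/6 background. RBM47 is an RNA-binding protein, and the K329R and K332R substitutions replace lysines to which the ubiquitin-like protein ISG15 is attached. The substitutions are present in every cell of the animal and always occur together, so effects of one or the other, or of the lung and of other organs, cannot be told apart. Mice were kept under a 12-hour light and dark cycle, and the hour at which lungs were taken is not given in the sources used here.

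Where 3 values are given for a genotype, they are those of replicates 1, 2 and 3 in that order. The 6 libraries held between 16501092 and 18141067 counted read pairs, and 3 pairs corresponded to at most 0.182 CPM, the count of a gene scaled to a common library size. Rbm47 itself was at 32.7, 33.5 and 34.1 CPM in the R/R lungs and at 28.8, 30.5 and 34.4 CPM in the WT lungs (log2 fold change 0.10, adjusted p = 0.660, edgeR), and gene counts do not show the substitutions. Markers of alveolar type 2 cells were abundant in all 6 lungs, with summed levels of 10 markers between 21079.7 and 28122 CPM. Adipoq, the adipocyte hormone adiponectin, had 10 and 17 counts in R/R replicate 3 and WT replicate 3 and 0 counts in the other 4 lungs.

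Per gene length, the fatty acid enzymes were the more abundant branch in these lungs. Levels were compared between genes as TPM, the counts of a gene over its length scaled to the same total in every lung, computed from the counts and the exon length in the table. The sum over the 10 fatty acid enzymes was 2826 ± 323 TPM in R/R lungs and 2884 ± 372 TPM in WT lungs (SD, n = 3 each), and the sum over the 18 sterol enzymes was 517 ± 45.8 TPM and 442 ± 22.3 TPM (SD, n = 3 each). Scd1, a desaturase that makes oleic and palmitoleic acid, was the most abundant member at a mean of 1483 TPM over the 6 lungs, followed by its paralogue Scd2 at 664 TPM. Fasn, the multifunctional fatty acid synthase, and Acly, which splits citrate to give cytosolic acetyl-CoA, came next at 218 and 199 TPM. In WT lungs these 2 genes differed by less than the SD of Fasn (33.1 TPM).

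Srebf2 was the most abundant regulator at 119 TPM and Hmgcs1, which condenses acetyl-CoA and acetoacetyl-CoA to HMG-CoA, the most abundant sterol enzyme of the early steps at 65.2 TPM. Among the late steps, Sc5d and Ebp had the highest levels, at 45.6 and 44.7 TPM. The lowest levels were those of Elovl6, the elongase of palmitate, at 4.26 TPM and of Fdps, which makes farnesyl diphosphate, at 2.49 TPM. Of the exon bases of Fdps, 26.7% are shared with Gm43738, and 21.4% of the 100-base windows of its transcripts also occur in other genes. Read pairs that overlap several genes or map to several places were not counted, so the level given for Fdps can be too low.

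**Figure D1:**
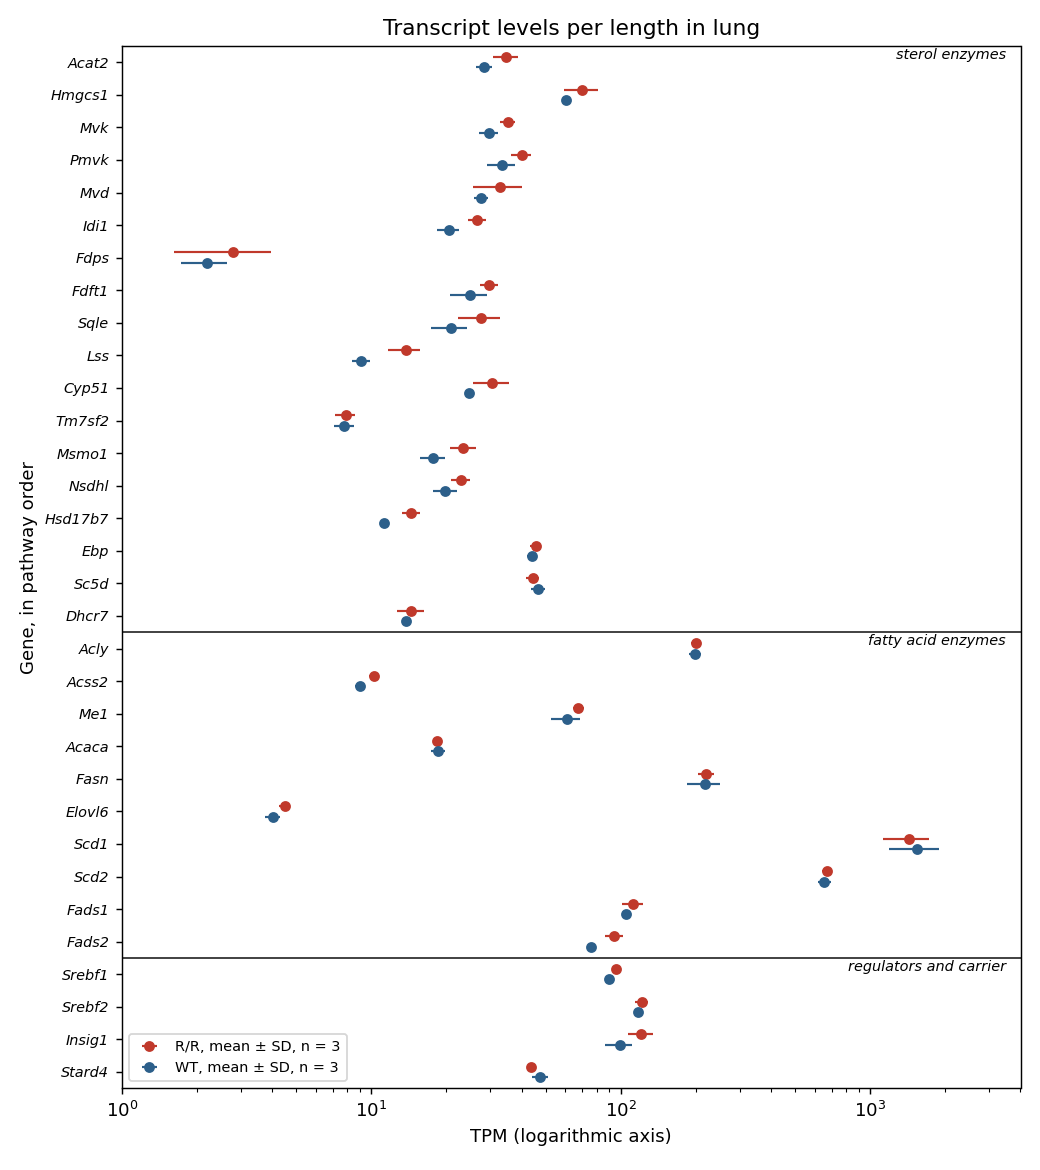
Level per length of each of the 32 genes in TPM (horizontal logarithmic axis), as mean and SD of 3 R/R lungs (red) and 3 WT lungs (blue), with genes in pathway order on the vertical axis. Levels ran from 2.49 TPM for Fdps to 1483 TPM for Scd1 (means of the 6 lungs), and the sterol enzymes were less abundant than the desaturases, Fasn and Acly.

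Of the 32 genes, 29 had a higher and 3 a lower fitted level in R/R than in WT lungs, and the median log2 fold change was 0.24, against 0.00 for all 17120 tested genes. Differentially expressed genes (DEGs) were defined by an adjusted p under 0.05 from edgeR's quasi-likelihood test over all tested genes. Lss, Hsd17b7 and Fads2 were DEGs, and all 3 rose. Of all tested genes, 1.75% were DEGs, 0.648% in the upward and 1.1% in the downward direction. At an unadjusted p under 0.05, 17 of the 32 genes were above and 0 below their WT level. Of all tested genes, 6.54% were higher at that level, and 1314 of 17120 were lower. In 11 of the 32 genes every R/R lung lay above every WT lung, as in 9.17% of all tested genes. In 0 of the 32 did every R/R lung lie below every WT lung, against 1627 of all 17120 tested genes. The genes belong to shared pathways and were measured in the same 6 lungs, so their counts are not independent. These are values of whole tissue, in which more cells of a type and more RNA per cell cannot be told apart.

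**Figure D2:**
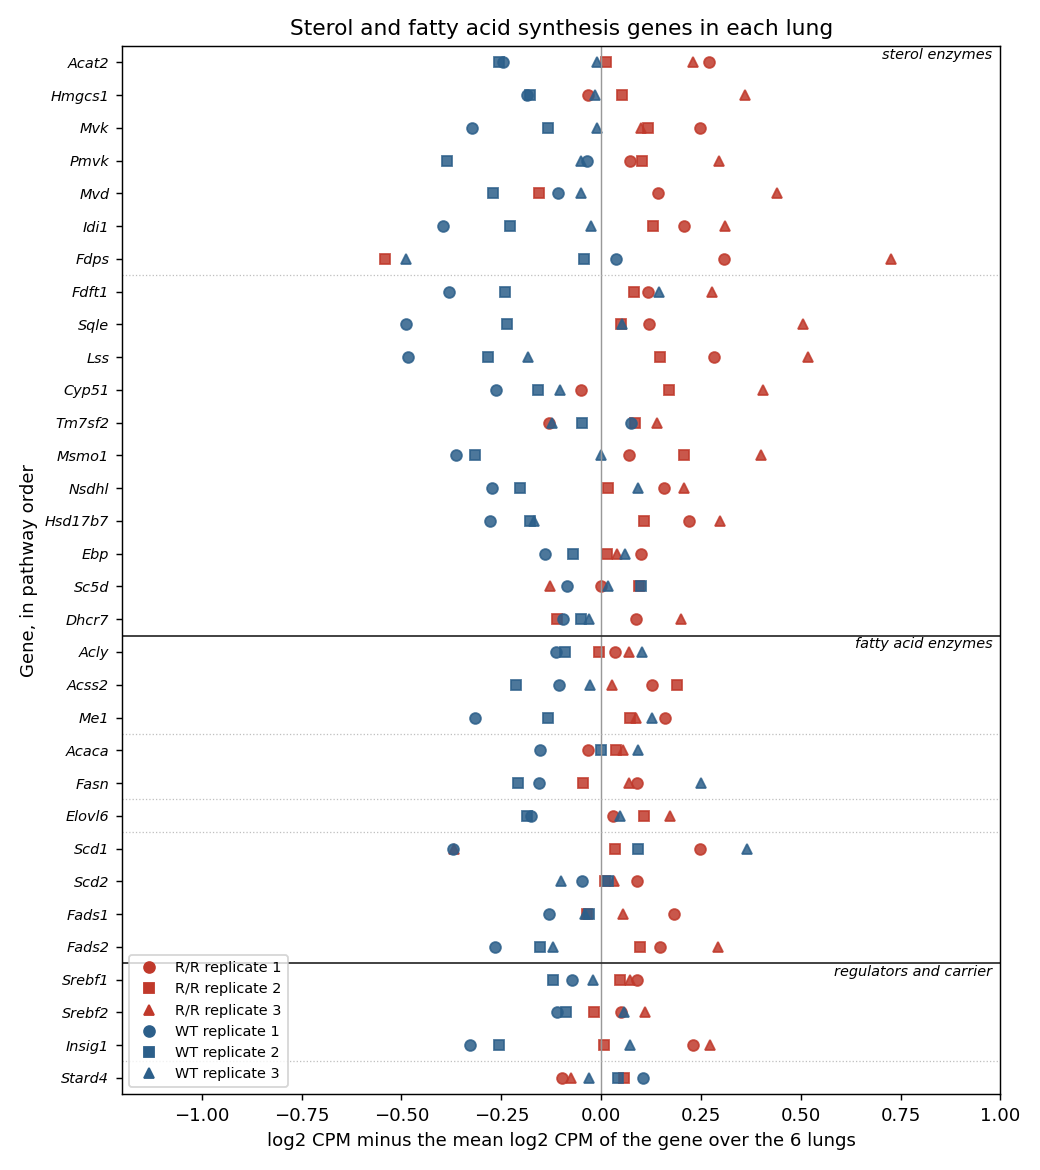
Each of the 32 genes in each of the 6 lungs, as log2 CPM minus the mean of that gene over the 6 lungs (horizontal axis), with genes in pathway order (vertical axis), R/R lungs in red and WT lungs in blue. Red points lie to the right of blue points in 8 of the 18 sterol enzymes and in 2 of the 10 fatty acid enzymes without overlap. R/R replicate 3 is the highest lung in 14 sterol enzymes, and its point for Scd1 lies under that of WT replicate 1.

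The difference was most regular among the sterol enzymes. Of the 18, 17 were higher in R/R lungs, 13 had an unadjusted p under 0.05 and 2 were DEGs, with a median log2 fold change of 0.31 and a range from -0.02 to 0.63. The summed level of the 18 enzymes was 508, 476 and 566 TPM in the R/R lungs and 423, 435 and 467 TPM in the WT lungs. All 3 R/R lungs lay above all 3 WT lungs, with a gap of less than 10 TPM between R/R replicate 2 and WT replicate 3.

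Lss encodes lanosterol synthase, which folds squalene epoxide into lanosterol, the first sterol of the pathway. It lies on chromosome 10 from 76531588 to 76557138 (plus strand, mm10) and had the largest difference of the 32 genes. Its level was 43.2, 39.4 and 50.9 CPM in the R/R lungs. In the WT lungs it was 25.4, 29.3 and 31.3 CPM. Every R/R lung was above every WT lung, and the means were 44.5 ± 5.88 and 28.7 ± 2.98 CPM (SD, n = 3 each). The fitted difference was 0.63 on the log2 scale (standard error 0.11, adjusted p = 0.0158, edgeR), a 1.55-fold difference. Of its exon bases, 3.53% lie opposite 4930483K19Rik, a gene on the other strand, and the counting did not use strand.

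Hsd17b7 encodes the 3-ketosteroid reductase that completes removal of the C4 methyl groups of lanosterol, and lies on chromosome 1 from 169949535 to 169969241 (minus strand, mm10). Its level was 22.4, 20.7 and 23.6 CPM in the R/R lungs and 15.9, 17.0 and 17.1 CPM in the WT lungs. The genotypes did not overlap, and the lungs within a genotype differed little. The fitted difference was 0.42 on the log2 scale (standard error 0.09, adjusted p = 0.0443, edgeR), and limma-voom did not call it (adjusted p = 0.0534). The exact two-sided permutation test gave p = 0.1 for Hsd17b7, Lss and Fads2, the smallest value that 3 lungs against 3 can give.

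Promoter sequence of 4 genes is shown to see which known motifs of this pathway they hold: the 3 DEGs, and Hmgcs1, in which a sterol regulatory element was matched. The sequences are the 250 bases before the RefSeq start site (GRCm38.p6), read 5′ to 3′ on the strand of the gene, at chr10:76531355-76531604 for Lss (plus strand), chr1:169969206-169969455 for Hsd17b7 (minus strand), chr19:10101504-10101753 for Fads2 (minus strand) and chr13:119690101-119690350 for Hmgcs1 (plus strand). Capitals mark the NF-Y box CCAAT on either strand (ATTGG where it is on the other strand) and the sterol regulatory element TCACNCCAC, to which SREBPs bind.
Lss: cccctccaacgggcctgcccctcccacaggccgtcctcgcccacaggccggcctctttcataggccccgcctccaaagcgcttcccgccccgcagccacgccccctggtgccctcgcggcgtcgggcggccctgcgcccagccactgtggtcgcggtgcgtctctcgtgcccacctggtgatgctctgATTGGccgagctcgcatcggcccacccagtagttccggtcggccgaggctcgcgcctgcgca
Hsd17b7: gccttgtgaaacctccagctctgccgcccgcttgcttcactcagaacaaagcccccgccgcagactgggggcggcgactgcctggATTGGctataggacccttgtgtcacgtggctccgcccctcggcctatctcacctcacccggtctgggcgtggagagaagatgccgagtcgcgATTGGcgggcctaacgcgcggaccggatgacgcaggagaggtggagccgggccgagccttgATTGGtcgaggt
Fads2: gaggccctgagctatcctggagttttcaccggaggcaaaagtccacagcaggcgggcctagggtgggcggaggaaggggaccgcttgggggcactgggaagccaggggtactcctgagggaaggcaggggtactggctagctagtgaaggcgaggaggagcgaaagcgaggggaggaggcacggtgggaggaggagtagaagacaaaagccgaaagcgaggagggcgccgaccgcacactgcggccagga
Hmgcs1: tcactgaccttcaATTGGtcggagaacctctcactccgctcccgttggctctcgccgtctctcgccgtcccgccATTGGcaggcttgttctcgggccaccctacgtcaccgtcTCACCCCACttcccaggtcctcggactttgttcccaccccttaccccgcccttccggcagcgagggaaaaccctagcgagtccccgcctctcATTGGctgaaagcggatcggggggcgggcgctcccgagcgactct

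Start sites differ between RefSeq and the GENCODE gene bounds of the count table. Most of the Fads2 window and a shorter stretch of those of Lss and Hsd17b7 lie within the gene as bounded there, whereas the RefSeq start of Hmgcs1 lies before the first base of its GENCODE gene, 119690379. The printed window of Lss held 1 NF-Y box, those of Hsd17b7 and Hmgcs1 held 3 each, and that of Fads2 held 0. Of the 32 genes, 25 matched a RefSeq promoter by symbol, with 31 promoters in all. The other 7 (Scd2, Fdft1, Sqle, Fdps, Scd1, Fads1 and Stard4) matched none in the promoter set used here. Over windows of 300 bases (250 before and 50 after the start, both strands), CCAAT was found in 71.0% of the 31 promoters. It was found in 37.4% of all 32851 promoters and in 36.8% of the promoters of tested genes. It was found in 14 of the 18 promoters of sterol enzymes and in 4 of the 8 promoters of fatty acid enzymes. The Sp1 box GGGCGG was in 74.2% of the 31 promoters, in 35.7% of all promoters and in 58.2% of the promoters of tested genes. TCACNCCAC was in 1 of the 31 promoters (3.23%), that of Hmgcs1, in 1.24% of all promoters and in 1.2% of those of tested genes. The shorter spelling TCACCCCA, which overlaps it, was also in that of Srebf2. These matches describe letters in a short window and were not tested against the values of the genes.

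The first steps, from acetyl-CoA to farnesyl diphosphate, are also the source of isoprenoids for ubiquinone and protein prenylation. All 7 genes were higher in R/R lungs. Their median log2 fold change was 0.31, with a range from 0.26 to 0.43 and 6 at an unadjusted p under 0.05. By edgeR 0 of the 7 were DEGs, DESeq2 called 1 (Idi1), limma-voom 0. Idi1, the isomerase of the isoprene units, was at 26.4 to 29.9 CPM in R/R lungs and at 18.3 to 23.7 CPM in WT lungs (log2 fold change 0.43, standard error 0.10, adjusted p = 0.0642, edgeR). Its genotypes did not overlap, and 21.9% of the 100-base windows of its transcripts also occur in transcripts of other genes.

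Hmgcs1 was at 86.2, 91.5 and 113 CPM in the R/R lungs and at 77.5, 77.9 and 87.2 CPM in the WT lungs. R/R replicate 1 lay below WT replicate 3, so the genotypes overlapped (log2 fold change 0.26, standard error 0.09, adjusted p = 0.223, edgeR). Without R/R replicate 3, the highest lung, its log2 fold change was 0.13. Acat2, Mvk and Pmvk, which make acetoacetyl-CoA and phosphorylate mevalonate in consecutive steps, had log2 fold changes between 0.30 and 0.34 and no overlap between the genotypes, with adjusted p of 0.130, 0.153 and 0.232 (edgeR). For Acat2, 28.9% of the 100-base windows of its transcripts also occur in other genes, chiefly Acat3. Mvd, the mevalonate diphosphate decarboxylase, had a log2 fold change of 0.30 (adjusted p = 0.351, edgeR), which was 0.14 without R/R replicate 3. Of the 7, Fdps varied most, from 2.03 to 4.89 CPM in R/R lungs and from 2.11 to 3.04 CPM in WT lungs (log2 fold change 0.40, 95% interval -0.26 to 1.06), and its log2 fold change was 0.10 without R/R replicate 3 and 0.68 without R/R replicate 2.

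The later steps, from squalene to cholesterol, comprise 11 of the genes, of which 10 were higher in R/R lungs, with 7 at an unadjusted p under 0.05 and a median log2 fold change of 0.30. Beside Lss and Hsd17b7, Sqle, Msmo1 and Cyp51 had the largest differences. Sqle, the squalene epoxidase, differed by 0.45 on the log2 scale (standard error 0.14, adjusted p = 0.158, edgeR), and R/R replicate 2 at 40.2 CPM lay just below WT replicate 3 at 40.3 CPM. Without R/R replicate 3 the difference of Sqle was 0.29. Msmo1, the C4 sterol methyl oxidase, differed by the same 0.45 on the log2 scale (standard error 0.11, adjusted p = 0.0673, edgeR), with 38.7 to 48.7 CPM in R/R lungs and 28.7 to 36.9 CPM in WT lungs. Cyp51, the lanosterol demethylase, was at 34.5 to 47.4 CPM in R/R lungs and at 29.8 to 33.3 CPM in WT lungs (log2 fold change 0.36, adjusted p = 0.132, edgeR), or 0.24 without R/R replicate 3.

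Fdft1, the squalene synthase, and Nsdhl, a C4 decarboxylase, had log2 fold changes of 0.30 and 0.25 with overlap between the genotypes (adjusted p = 0.268 and 0.341, edgeR). Of the exon bases of Fdft1, 18.8% lie opposite the cathepsin gene Ctsb. The other late enzymes differed less. Tm7sf2, which acts next to Cyp51, and Ebp and Dhcr7, which act near the end of the route, reduce or move double bonds of the sterol rings. They had log2 fold changes of 0.07, 0.10 and 0.12, each with a 95% interval that includes 0. Sc5d, the sterol C5 desaturase, had a log2 fold change of -0.02 (95% interval -0.18 to 0.14). It was at 65.6, 70.1 and 60.1 CPM in the R/R lungs and at 61.9, 70.4 and 66.5 CPM in the WT lungs, with full overlap.

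**Figure D3:**
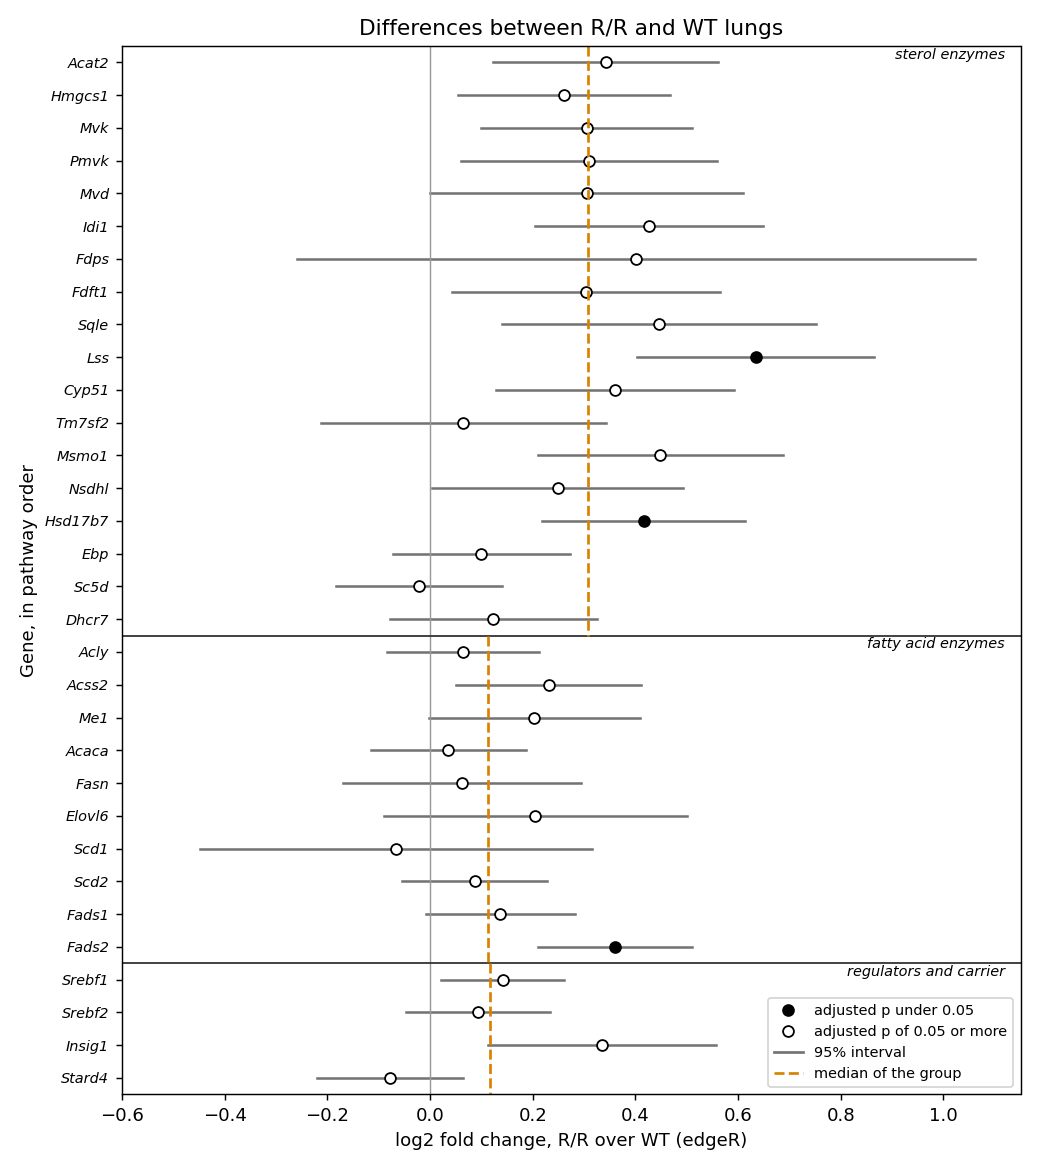
Log2 fold change of R/R over WT lungs for each of the 32 genes (horizontal axis, edgeR, 3 lungs each), with 95% intervals as bars, DEGs as filled points and the median of each group as a dashed line. The median is 0.31 for the sterol enzymes, 0.11 for the fatty acid enzymes and 0.12 for the regulators and carrier, and Lss, Hsd17b7 and Fads2 are filled.

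Fatty acid synthesis builds palmitate from acetyl-CoA and malonyl-CoA, and elongases and desaturases then modify it. Of the 10 enzymes, 9 were higher in R/R lungs, but 2 had an unadjusted p under 0.05 (Acss2 and Fads2), 1 was a DEG, and the median log2 fold change was 0.11, with a range from -0.07 to 0.36. Their summed level overlapped between the genotypes, at 3180.1, 2749 and 2548 TPM in the R/R lungs and 2481, 2958 and 3213 TPM in the WT lungs. Scd1 and Scd2 together supply most of this sum, so it follows them.

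Fads2, the delta-6 desaturase that starts the conversion of linoleic and linolenic acid into longer polyunsaturated fatty acids, was the DEG of this branch. It lies on chromosome 19 from 10062765 to 10101746 (minus strand, mm10). Its level was 91.3, 88.2 and 101 CPM in the R/R lungs and 68.6, 74.1 and 75.8 CPM in the WT lungs. The lowest R/R lung was above the highest WT lung (log2 fold change 0.36, standard error 0.07, adjusted p = 0.0302, edgeR). Its neighbour in the pathway, the delta-5 desaturase Fads1, had a log2 fold change of 0.14 (95% interval -0.01 to 0.28, adjusted p = 0.383, edgeR) and overlap between the genotypes.

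Fasn was at 751, 683 and 741 CPM in the R/R lungs and at 634, 611 and 839 CPM in the WT lungs. WT replicate 3 was the highest of all 6 lungs and the other WT lungs were the lowest, so the genotypes overlapped (log2 fold change 0.06, 95% interval -0.17 to 0.29, adjusted p = 0.856, edgeR). Acaca, the acetyl-CoA carboxylase that supplies malonyl-CoA to Fasn, had a log2 fold change of 0.04 (95% interval -0.11 to 0.19). The direction of both genes turned when WT replicate 1 was left out.

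Scd1 varied widely among lungs of one genotype. It was at 2509, 2165 and 1639 CPM in the R/R lungs and at 1635, 2253 and 2724 CPM in the WT lungs. The ranges of the genotypes overlapped, with WT replicate 3 above every R/R lung (log2 fold change -0.07, 95% interval -0.45 to 0.32, adjusted p = 0.915, edgeR). Without R/R replicate 3 and WT replicate 3, the 2 lungs with adipocyte counts, the log2 fold change of Scd1 was 0.26. Scd2 spanned a narrow range, from 1081 to 1142 CPM in R/R lungs and from 1003 to 1086 CPM in WT lungs (log2 fold change 0.09, adjusted p = 0.611, edgeR).

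The genes that supply precursors were higher by smaller amounts. Acss2, which makes acetyl-CoA from acetate, was at 29.5 to 33.0 CPM in R/R lungs and at 24.9 to 28.4 CPM in WT lungs, without overlap (log2 fold change 0.23, standard error 0.08, adjusted p = 0.215, edgeR). Me1, the malic enzyme that supplies NADPH, had a log2 fold change of 0.20 (adjusted p = 0.359, edgeR) and Acly of 0.06 (adjusted p = 0.742, edgeR), both with overlap. Elovl6 had a log2 fold change of 0.21 (95% interval -0.09 to 0.50).

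The regulators gave 0 DEGs of 4 by edgeR, with 2 at an unadjusted p under 0.05, 1 called by DESeq2 (Insig1) and 0 by limma-voom. Srebf1 was at 165, 160.0 and 163 CPM in the R/R lungs and at 147, 142 and 153 CPM in the WT lungs. The genotypes did not overlap, but the difference was small (log2 fold change 0.14, standard error 0.05, adjusted p = 0.260, edgeR). Srebf2 was at 263, 251 and 274 CPM in the R/R lungs and at 235, 239 and 264 CPM in the WT lungs, with overlap (log2 fold change 0.09, 95% interval -0.05 to 0.23, adjusted p = 0.574, edgeR). These are mRNA levels, and cleavage of the SREBP proteins was not measured.

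Insig1, itself a target of SREBPs and the protein that retains them, was at 117, 100.4 and 120.5 CPM in the R/R lungs. In the WT lungs it was at 79.5, 83.6 and 105 CPM, so R/R replicate 2 lay below WT replicate 3 (log2 fold change 0.33, standard error 0.10, adjusted p = 0.143, edgeR). Stard4, a carrier of cholesterol between membranes, was one of the 3 genes with a lower fitted level in R/R lungs (log2 fold change -0.08, 95% interval -0.22 to 0.07).

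**Figure D4:**
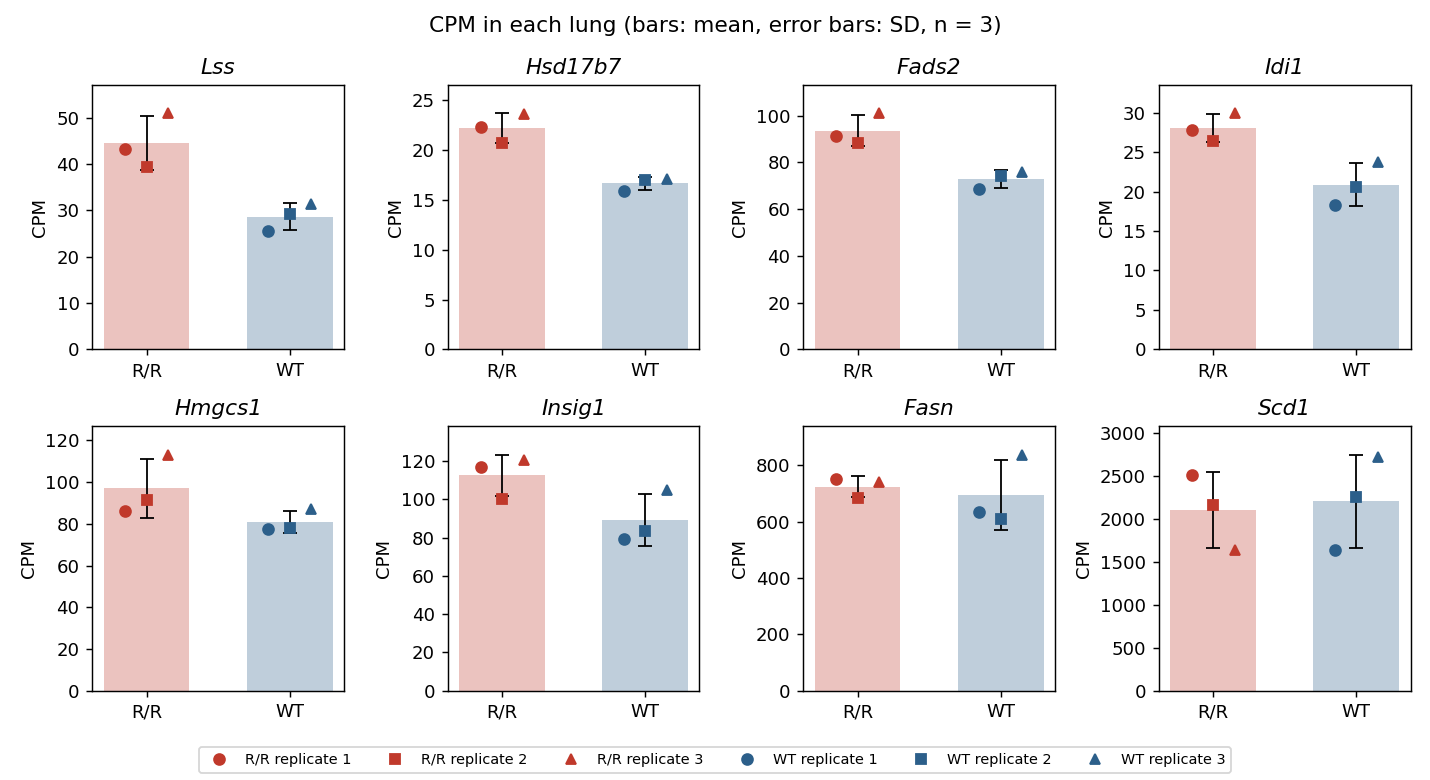
CPM of 8 genes in each lung (vertical axis from 0), with bars for the mean and error bars for the SD of 3 lungs, R/R in red and WT in blue. In Lss, Hsd17b7, Fads2 and Idi1 all R/R lungs lie above all WT lungs, and in Hmgcs1, Insig1 and Fasn WT replicate 3 lies among or above the R/R lungs. In Scd1 the ranges of the genotypes overlap, with WT replicate 3 the highest lung.

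The sterol and fatty acid branches were compared lung by lung as the mean over the enzymes of a branch of log2 CPM minus the mean of each gene over the 6 lungs. The sterol mean was 0.12, 0.03 and 0.30 in the R/R lungs and -0.22, -0.18 and -0.05 in the WT lungs, without overlap. The fatty acid mean was 0.11, 0.05 and 0.05 in the R/R lungs and -0.18, -0.09 and 0.07 in the WT lungs, and WT replicate 3 lay within the R/R lungs. The sterol mean minus the fatty acid mean was 0.08 ± 0.14 in R/R lungs and -0.08 ± 0.04 in WT lungs (SD, n = 3 each), a difference of 0.16. R/R replicate 3 was at 0.25 and R/R replicates 1 and 2 at 0.01 and -0.01, and all 3 lay above the WT lungs, at -0.04, -0.09 and -0.12. Without R/R replicate 3 the difference between the genotypes was 0.08, and without both lungs with adipocyte counts it was 0.06. No test was made of these means, because the genes were listed with results of these data known.

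Single lungs bore on the whole set. R/R replicate 3 was the highest lung for 14 of the 18 sterol enzymes, and WT replicate 1 was the lowest for 11 of them. Among the 10 fatty acid enzymes WT replicate 3 was the highest in 4 and WT replicate 1 the lowest in 6. Without WT replicate 1, 0 of the 32 genes were DEGs by edgeR, 12 at an unadjusted p under 0.05, and Lss had an adjusted p of 0.0672, and 0.372% of all tested genes were DEGs. Without WT replicate 3, 10 of the 32 were DEGs, where 3.56% of all tested genes were. Fads2 and Hsd17b7 were DEGs in 1 of these 6 runs with 1 lung left out, the one without WT replicate 3. Lss was the 1 DEG of the set when WT replicate 2 or either of R/R replicates 2 and 3 was left out, and without R/R replicate 1 the DEGs were Lss and Cyp51. Of all tested genes, DEGs were 0.632% without WT replicate 2, 0.434% without R/R replicate 2, 0.671% without R/R replicate 3 and 1.03% without R/R replicate 1. Without the 2 lungs with adipocyte counts, a choice made after seeing the data, 7 were DEGs, with 3.34% of all tested genes (Idi1, Fdft1, Sqle, Lss, Msmo1, Fads2 and Insig1), and the median log2 fold change was 0.31 for the sterol and 0.23 for the fatty acid enzymes.

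Other lipid genes were read from separate lists. The genes around fatty acid synthesis gave 0 DEGs of 15 by edgeR, with 12 higher, 2 at an unadjusted p under 0.05 and 0 called by DESeq2 or limma-voom. The sterol efflux genes gave 0 DEGs of 7 by edgeR, with 4 higher, 3 at an unadjusted p under 0.05, 1 called by DESeq2 (Abcg1) and 0 by limma-voom. Abcg1, an exporter of cholesterol that is induced by LXR and was singled out after its values were seen, had a log2 fold change of 0.30 (adjusted p = 0.0558, edgeR). Genes induced by fasting or active in fat oxidation gave 0 DEGs of 8 by edgeR, with 6 lower, 1 at an unadjusted p under 0.05, higher in R/R lungs, and 0 called by DESeq2 or limma-voom. The median log2 fold changes of the 3 lists were 0.09, 0.08 and -0.10. The mean over the genes of a list was higher in every R/R than in every WT lung for the first 2 of these lists, as it was for the sterol enzymes and for the regulators and carrier. The gap was narrow for the regulators and carrier (R/R replicate 2 at 0.024, WT replicate 3 at 0.020) and for the efflux genes (R/R replicate 3 at -0.009, WT replicate 2 at -0.027). By summed CPM and by summed TPM the genotypes overlapped for these 2 lists and for the regulators and carrier, but not for the sterol enzymes.

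Markers of cell types that make or handle lipid were read beside these values. The 8 alveolar macrophage markers were all higher in R/R lungs and 2 were DEGs by edgeR (Chil3 and Mrc1), 4 by DESeq2 and 1 by limma-voom (Chil3), with summed levels of 845 to 972 CPM in R/R lungs and 534 to 742 CPM in WT lungs. Ordered by the mean over these markers, the 6 lungs fell in the same order as by the mean over the sterol enzymes, from R/R replicates 3, 1 and 2 to WT replicates 3, 2 and 1. The marker means of R/R replicates 3 and 1 were close, at 0.303 and 0.298. By the summed level of these markers, R/R replicate 1 (972 CPM) came before R/R replicate 3 (927 CPM). The 10 alveolar type 2 markers were all higher with 0 DEGs by edgeR, 4 at an unadjusted p under 0.05, 1 called by DESeq2 (Sftpc) and 0 by limma-voom, and their sums were 26690.0 to 28122 CPM in R/R lungs and 21079.7 to 26418 CPM in WT lungs. By the mean over the alveolar type 2 markers, WT replicate 3 (0.085) lay above R/R replicate 2 (0.018), unlike in the order by the sterol enzymes. WT replicate 1 had the lowest sum of both marker lists. Their part in the levels of the sterol and fatty acid genes was not tested.

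Adipocytes make fatty acids at a high rate, and 7 of their 10 markers were too low to be tested. The lungs with adipocyte counts were 1 of each genotype, R/R replicate 3 and WT replicate 3, in which Cfd, the adipocyte protease adipsin, was at 8.48 and 8.66 CPM against 0.110 to 1.61 CPM in the other lungs. Lep, the hormone leptin, had 1 count in each of these lungs and 0 in the others. Of the 6 lipofibroblast markers, 4 were higher and 0 were DEGs by edgeR, with 2 at an unadjusted p under 0.05 and 0 called by DESeq2 or limma-voom. Myelinating Schwann cells make much cholesterol. Of 5 genes listed as their markers, 3 were higher and 2 lower, with 0 DEGs by edgeR and 1 lower at an unadjusted p under 0.05. DESeq2 called 1 (Prx) and limma-voom 0, and whether Prx counts in lung come from these cells was not tested.

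Lists outside lipid metabolism also differed between the genotypes. The 5 T and B cell markers were all lower in R/R lungs and 3 were DEGs (3 by DESeq2 and 2 by limma-voom), with sums of 49.0 to 64.6 CPM in R/R lungs and 95.2 to 115 CPM in WT lungs. The 5 genes of erythroid cells and blood were all lower and 1 was a DEG by edgeR and limma-voom (Hba-a1), with 0 called by DESeq2, and their sums were 1175 to 2218 CPM and 2424 to 3217 CPM. Of 8 clock genes that peak around evening, 7 were higher and 4 were DEGs (Dbp, Per3, Nr1d2 and Tef), and of 4 that peak around morning all were lower and 2 were DEGs (Arntl and Npas2). DESeq2 called 5 evening and 2 morning genes, and limma-voom 4 and 1 (Npas2). Sums of the evening genes were 1148 to 1309.7 CPM in R/R lungs and 828 to 901 CPM in WT lungs. Sterol synthesis genes are known to vary over the day in several tissues, and the part of clock phase in the values given here was not tested. Endothelial markers were lower in 4 of 5 cases and club cell markers higher in 2 of 3, each with 0 DEGs by edgeR, 1 and 0 at an unadjusted p under 0.05, and 0 called by DESeq2 or limma-voom.

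**Figure D5:**
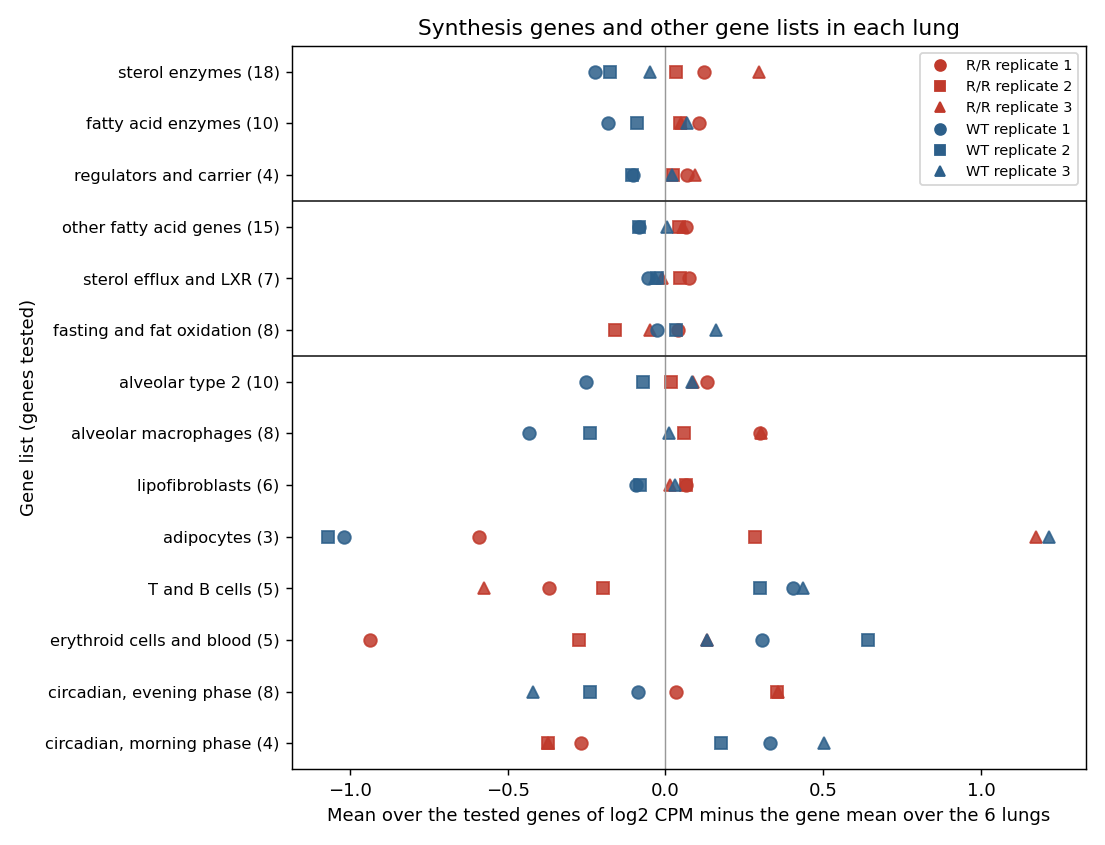
Mean over the tested genes of each list of log2 CPM minus the mean of each gene over the 6 lungs (horizontal axis), for the synthesis genes, other lipid genes and marker lists (vertical axis, number of genes tested in parentheses), with R/R lungs in red and WT lungs in blue. The sterol enzymes, regulators and carrier, other fatty acid genes, sterol efflux genes, alveolar macrophage markers and evening clock genes show all R/R lungs above all WT lungs. The gap is narrow for the regulators and carrier (R/R replicate 2 at 0.024, WT replicate 3 at 0.020) and for the sterol efflux genes. The fatty acid enzymes and alveolar type 2 markers overlap.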

How the data were processed

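RNA was measured in 6 lungs, and groups and replicate numbers came from the sample labels. The authors used HISAT2 2.1.0 to align reads of 150 bp to the mouse assembly mm10 (GRCm38). The values they deposited are unnormalized read-pair counts for each gene of GENCODE M25, made with featureCounts 2.0.1 per the file header. The supplement names an earlier version of featureCounts. Pairs that map to several places or overlap several genes were not counted, and strand was not used although the sequencing is described as stranded. The submitters' processing notes name DESeq2 and the supplement names edgeR for DEGs. For RNA extraction the supplement names Trizol and the labels name RNeasy.

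All 6 deposited columns hold whole numbers and were used as raw counts. Gene lengths, used for TPM, come from the same table. Symbols were taken from GENCODE M21 of the same assembly, which matched 55141 of 56262 identifiers.

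Counts were filtered with filterByExpr (minimum count 10, minimum total 15), scaled by TMM and compared with the quasi-likelihood test of edgeR 4.0.16 in R 4.3.3, with Benjamini-Hochberg adjustment over 17120 genes and a threshold of 0.05. Each standard error was obtained as the ratio of the log2 fold change to the square root of its F statistic. CPM on the log2 scale used a prior count of 0.5. Replicates are described as biological. Between lungs of one genotype the chi-square per degree of freedom was 5.64 to 9.02, so each was counted once. The biological coefficient of variation was 8.62%. Limits set from counts cover counting error only. Promoters came from RefSeq (GRCm38.p6). The fits were tested on simulated counts.

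Alternatives were DESeq2 1.42.0, limma-voom (limma 3.58.1), library size without TMM, upper-quartile factors, other filters, the replicate number as a block and each lung left out. All 32 genes are named, with the value in every lung for DEGs, for Srebf1, Srebf2, Insig1, Fasn and Scd1, and for the most abundant gene of each group. Some other lipid genes that the rule names are not reported here. The members and lists were chosen with earlier results of these data known. Overlap with other genes was computed from the exons in the table and from windows of 100 bases of GENCODE M21 transcripts.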

Additional observations from a re-analysis of the deposited data

How the results depend on the processing

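Under DESeq2 there were 541 DEGs (3.16% of tested genes), 7 of them among the 32 genes (Idi1, Sqle, Lss, Msmo1, Hsd17b7, Fads2 and Insig1). With no filter beyond 1 count in total there were 1109 (3.53%), 11 of them among the 32. Without the 2 lungs with adipocyte counts there were 575 and 7, and the median log2 fold change of the fatty acid enzymes was 0.23. With 1 lung left out in turn, DEGs numbered 65 (without WT replicate 1) to 621 (without WT replicate 3), and 0 to 10 of the 32 genes for the same lungs. The median log2 fold change ranged from 0.24 to 0.37 for the sterol and from 0.07 to 0.18 for the fatty acid enzymes, and the difference between the branches from 0.08 to 0.21. Upper-quartile factors (1.72% of tested genes), library size without TMM (1.71%) and a filter of at least 1 CPM in 3 libraries (1.72%) gave 3 of the 32. With limma-voom (1.47%) it was 2. Lss was a DEG in 7 of 7 alternatives with all lungs and in 5 of 6 with 1 lung left out, Fads2 in 7 and 1, and Hsd17b7 in 6 (not limma-voom) and 1.

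Same-numbered lungs of the 2 genotypes deviated from their group means with correlations of -0.014, -0.004 and -0.015. Lungs of unlike number had correlations from -0.022 to 0.032. With 3 lungs a genotype, these values cannot show whether the numbers in the labels pair the lungs. With the replicate number as a block, 446 genes (2.61%) and 7 of the 32 were DEGs.

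Directions turned for 6 of the 32 genes, with log2 fold changes near 0 except for Fdps at 0.40. With 1 lung left out in turn, log2 fold changes ranged from -0.029 (without WT replicate 1) to 0.091 for Acaca, and from -0.024 (without WT replicate 2) to 0.22 for Fasn, which was at -0.0018 without WT replicate 1. They ranged from -0.075 to 0.034 (without R/R replicate 3) for Sc5d, which was at 0.023 without WT replicate 2, and from -0.24 to 0.11 (without WT replicate 3) for Scd1, which was at 0.085 without R/R replicate 3. Without the 2 lungs with adipocyte counts they were -0.045 for Fdps, 0.036 for Sc5d, 0.26 for Scd1 and -0.036 for Tm7sf2. The cause was not tested. With 3 lungs a genotype, differences of the size seen in most fatty acid enzymes were within the spread between lungs.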
